A study of Mus musculus with 24 samples.

Results

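The genes described here are 10 mucosal defence genes chosen by name: the Reg lectin genes Reg1, Reg3a, Reg3b, Reg3g and Reg4, the serum amyloid A genes Saa1 and Saa2, the oxidase gene Duox2 with its maturation factor gene Duoxa2, and the fucosyltransferase gene Fut2. They are 10 of the 55536 genes counted. Ileum, the distal small intestine, was taken from 24 C57BL/6N mice and its RNA sequenced, 1 library each. Both sexes were used, and all mice were 4 to 5 weeks old when the diets began. The CD group ate a control diet with 10% of energy from fat and the HFD group a high-fat diet with 60%. The CDmetf and HFDmetf groups ate the same diets and, after 20 weeks of diet, received metformin, a drug for diabetes, in their water (50 mg/kg daily, 10 weeks). Each group held 6 animals, 3 males (M1 to M3) and 3 females (F1 to F3), and the study took 1 animal from each cage.

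The epithelium of the ileum keeps bacteria off its surface with secreted lectins, reactive oxygen and a fucosylated glycan coat. Much of this programme is switched on by interleukin-22 (IL-22), a cytokine of group 3 innate lymphoid cells and Th17 cells. IL-22 binds the epithelial receptor chains Il22ra1 and Il10rb and signals through Stat3, and bacterial products sensed through Myd88 feed into the same genes. REG3 lectins kill or displace bacteria, serum amyloid A proteins carry retinol and shape Th17 responses, DUOX2 releases hydrogen peroxide into the lumen, and FUT2 adds fucose to mucosal glycans that commensals use.

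Of the Reg genes, 4 (Reg1, Reg3a, Reg3b and Reg3g) lie on chromosome 6, Saa1 and Saa2 are neighbours on chromosome 7, and Duox2 and Duoxa2 lie head to head on chromosome 2. The 250 bases before the start site are shown for the genes whose levels moved together and for the Saa pair, from RefSeq on GRCm38.p6. The windows are chr6:78370635-78370884 on the plus strand (Reg3b), chr6:78468875-78469124 on the minus strand (Reg3g), chr7:46742981-46743230 on the minus strand (Saa1), chr7:46751583-46751832 on the plus strand (Saa2), chr2:122298228-122298477 on the minus strand (Duox2) and chr2:122298650-122298899 on the plus strand (Duoxa2). Each is printed 5′ to 3′ on the strand of its gene, with capitals where 1 of 4 searched motifs matched.
Reg3b: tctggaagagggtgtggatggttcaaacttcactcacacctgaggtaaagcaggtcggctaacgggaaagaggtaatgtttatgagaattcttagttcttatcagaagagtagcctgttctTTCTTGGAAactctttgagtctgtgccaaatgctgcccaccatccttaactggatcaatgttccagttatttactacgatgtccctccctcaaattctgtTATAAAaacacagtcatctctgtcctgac
Reg3g: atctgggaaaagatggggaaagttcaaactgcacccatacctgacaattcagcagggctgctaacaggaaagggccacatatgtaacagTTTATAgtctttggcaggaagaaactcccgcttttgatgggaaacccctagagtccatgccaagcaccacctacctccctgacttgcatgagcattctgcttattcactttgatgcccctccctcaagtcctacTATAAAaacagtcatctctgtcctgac
Saa1: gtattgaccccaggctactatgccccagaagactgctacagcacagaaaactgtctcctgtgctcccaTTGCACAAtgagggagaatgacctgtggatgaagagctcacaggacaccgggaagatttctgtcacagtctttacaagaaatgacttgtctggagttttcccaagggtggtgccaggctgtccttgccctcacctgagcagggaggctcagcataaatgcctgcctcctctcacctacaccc
Saa2: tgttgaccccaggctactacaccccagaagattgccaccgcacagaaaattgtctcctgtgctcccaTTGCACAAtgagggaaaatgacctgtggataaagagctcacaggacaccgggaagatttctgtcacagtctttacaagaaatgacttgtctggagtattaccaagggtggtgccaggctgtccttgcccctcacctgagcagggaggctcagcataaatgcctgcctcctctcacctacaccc
Duox2: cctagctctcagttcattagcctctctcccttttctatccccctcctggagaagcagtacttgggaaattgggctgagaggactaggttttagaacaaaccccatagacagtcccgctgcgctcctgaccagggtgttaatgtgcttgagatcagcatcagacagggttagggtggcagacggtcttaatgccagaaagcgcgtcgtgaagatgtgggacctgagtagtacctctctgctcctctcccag
Duoxa2: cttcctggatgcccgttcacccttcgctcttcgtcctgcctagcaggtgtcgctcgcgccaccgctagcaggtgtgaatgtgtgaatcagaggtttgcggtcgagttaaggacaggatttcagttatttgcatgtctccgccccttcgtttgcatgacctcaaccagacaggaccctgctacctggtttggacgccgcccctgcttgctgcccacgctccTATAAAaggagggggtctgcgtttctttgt

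The motifs, searched on both strands from 250 bases before to 50 after the start site, were STAT (TTCNNNGAA), C/EBP (TTGCNNAA) and the TATA box (TATAAA). Of the 10 genes, 9 had a promoter in the table, and Fut2 did not. A STAT match stood only in Reg3b among these 9, at base -129, against 8.3% of the 32851 promoters in the table. The NF-kappa B motif had no match in these 9, against 1.63% of all promoters. TATA box matches close to base -30 were present in Reg3b, Reg3g, Duoxa2 and Reg1, with a match anywhere in 13.6% of all promoters. Saa1 and Saa2 shared a C/EBP match at bases -182 and -183, and Reg3a held one at base -190, against 10.8% of all promoters. The 300-base windows of Saa1 and Saa2 were identical in 287 of 301 aligned positions (95.3%) and those of Reg3b and Reg3g in 214 of 310 (69.0%). Duox2 held no match, and its start site stood 673 bases from that of Duoxa2. In the GENCODE M21 annotation Duox2 reaches 122298449, inside the window printed for it.

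The libraries held between 1829690 (HFDmetf F2) and 40606442 (HFD F1) reads on genes. Levels are given as CPM, read counts scaled to a common library size with TMM normalization, and 3 reads corresponded to between 0.0701 and 1.7 CPM. In CD M3 the 10 most abundant genes took 85.4% of the counts and in HFDmetf F2 36.6%, against at most 19% in the other libraries. The library labelled HFD M2 had 3355 Xist reads and 0 reads of Y-linked genes, and the library labelled HFD F2 had 1 Xist read and 423 Y-linked reads, so both went against their sex labels. Of the 6 ileum markers, none was at 0 throughout any group, and their summed level ranged from 1290 to 6780 CPM. Fabp6, the ileal bile acid binding protein, ranged from 0.812 CPM in HFD to 2650 CPM in CDmetf. Markers of more proximal small intestine ranged more widely, from 59.2 to 11500 CPM. HFD M3 held that highest proximal value and, with 1480 CPM, the lowest summed ileum markers in HFD. In bulk tissue, fewer cells of a type and less RNA per cell cannot be told apart.

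Reg3b was the most abundant of the 10 genes per kilobase of exon, and Saa2 was close to absent. The medians over the 24 libraries ran from Reg3b (496 CPM per kb) through Reg3g (118), Reg4 (70.6), Reg3a (48.8), Duox2 (31.5), Duoxa2 (6.35), Reg1 (1.63), Fut2 (0.384) and Saa1 (0.143) to Saa2 (0). Reg3b stood above Reg3g, and Duox2 above Duoxa2, in 24 of 24 libraries. Other neighbours in this order were closer: Reg3g exceeded Reg4 in 16 libraries, Reg4 exceeded Reg3a in 17 and Fut2 exceeded Saa1 in 16. The annotated exons of Reg3g and Saa1 include retained introns, so their values depend on the length chosen. With the longest protein-coding transcript, Reg3b had a median of 724 CPM per kb and Reg3g of 324, Reg3b stood above Reg3g in 23 libraries and Reg3g above Reg4 in 24. By that length Saa1 had 0.584 beside 0.706 for Fut2, which was higher in 13 libraries.

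**Figure D1:**
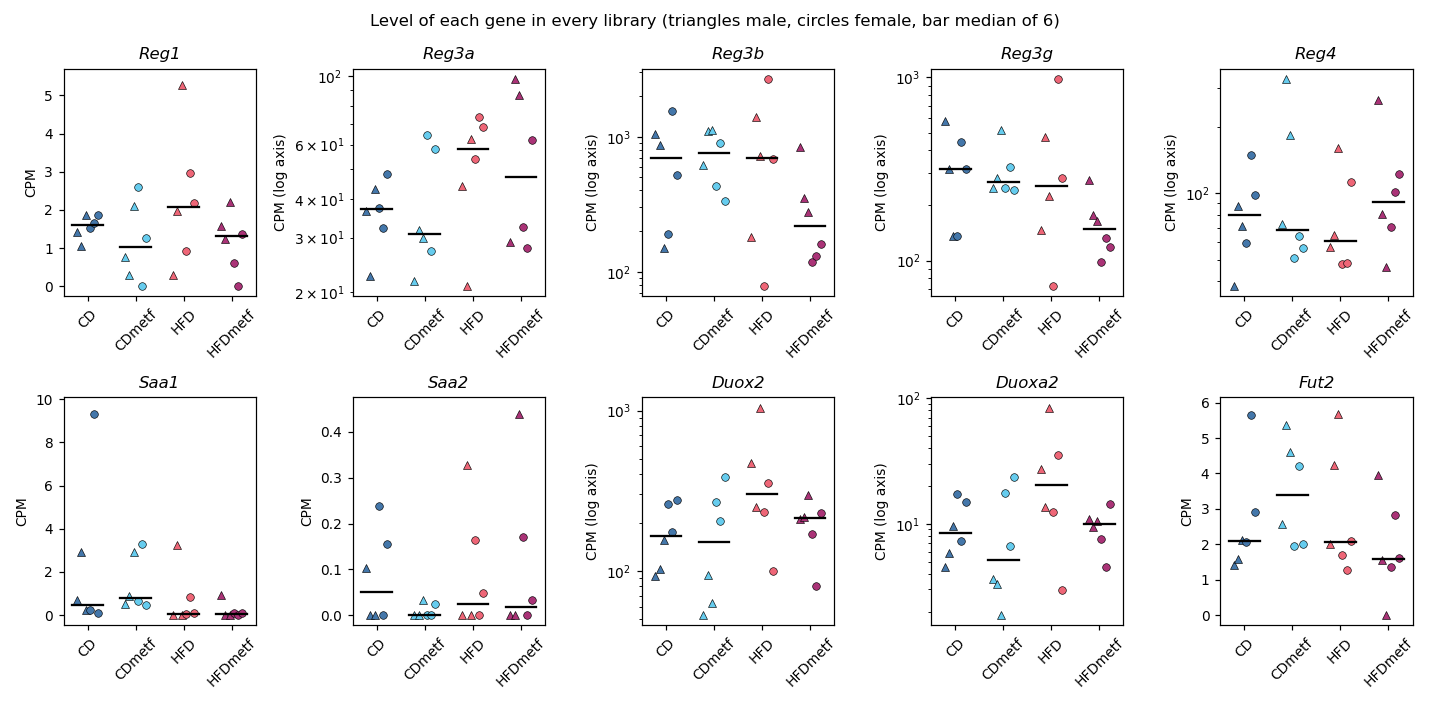
CPM of each of the 10 genes in every library by group, with triangles for males, circles for females and bars for the median of 6; genes with no library at 0 are on a log axis. For every gene the 4 groups overlap, and Reg3b reaches from 78.4 CPM in HFD F1 to 2680 CPM in HFD F2 within 1 group.

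Animals of 1 group differed greatly. The within-group SD of log2 CPM was 1.33 for Reg3b, 0.85 for Reg3g, 0.94 for Duox2 and 1.18 for Duoxa2, against a median of 0.41 over all tested genes. Each of the 10 genes had a larger within-group SD than at least 78.7% of tested genes, the least being Reg3a, and Saa1 exceeded 98.3% of them. For Saa1, Saa2, Reg1 and Fut2 few reads add to the SD, and this share was not separated from differences between animals. Saa2 gave 23 reads in all libraries together, and Saa1 had at least 3 reads in 12 of 24. Reg1 and Saa2 did not pass the filter that the tested genes passed. Differences between groups took between 5.45% (Reg4) and 33.3% (Saa1) of a gene's variance of log2 CPM, where the median over tested genes was 11.5%. These SDs were taken without removing replicate number. The study was run in time blocks, and the labels do not say whether the replicate numbers are these blocks. In HFD, Reg3b was 180 and 78.4 CPM at number 1, 1400 and 2680 CPM at number 2, and 716 and 681 CPM at number 3. In HFDmetf it was 838 and 119 CPM, 351 and 131 CPM, and 278 and 161 CPM.

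Of the 10 genes, 8 passed the filter on low counts and were tested among 14076 genes. Reg1 and Saa2 were too low. No gene, and so none of the 8, passed an FDR (Benjamini-Hochberg adjusted p, edgeR's quasi-likelihood test) of 0.05 in any of the 4 comparisons of groups made (diet without and with metformin, and metformin on each diet), and the share of all genes called was 0% in each. The values below are therefore differences that did not exceed the spread between animals after adjustment. In all 4 comparisons the group ranges of each of the 10 genes overlapped.

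HFD vs. CD asked what the diet did without the drug. At an unadjusted p under 0.05, 4.63% of tested genes (652) and 3 of the 8 were counted, Duox2 and Duoxa2 with higher and Saa1 with lower values in HFD. Without CD M3 these were again the 3 genes counted, and without HFD M2 and HFD F2 they were Saa1 and Duox2. Without HFD M3 the count was 0, and without HFD F2 alone it was 1 (Duox2). Duox2 ranged in CD from 92.7 to 277 CPM with a median of 165, and in HFD from 99.8 to 1040 CPM with a median of 301. In HFD, 5 of 6 libraries were above the CD median, and HFD M3 was far above the rest (logFC = 1.27; SE = 0.49; FDR = 1). Duoxa2, whose product brings DUOX2 to the cell surface, went from 4.49 to 17.2 CPM in CD (median 8.48) and from 2.95 to 83.7 CPM in HFD (median 20.5). Again 5 of 6 HFD libraries exceeded the CD median (logFC = 1.62; SE = 0.62; FDR = 1). HFD F3 was the lowest of the HFD libraries for both genes. Without HFD M3 the logFC of Duox2 was 0.82 and that of Duoxa2 0.97. By limma-voom, which gives deeper libraries more weight, Duox2 kept a logFC of 1.22 but Duoxa2 had only 0.21. By that fit 1 of the 8, Duox2, had an unadjusted p under 0.05. Reg3b and Reg3g had nearly the same centre on both diets. Reg3b had a median of 693 CPM in CD and 698 CPM in HFD (logFC = 0.26; SE = 0.62), with the HFD libraries spread over a wider range. Reg3g had medians of 316 and 254 CPM (logFC = 0.01; SE = 0.45). Reg3a, the least variable of the Reg genes, had medians of 37 and 58.2 CPM, with 5 of 6 HFD libraries above the CD median (logFC = 0.53; SE = 0.32; FDR = 1).

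Saa1 gave between 0 and 90 reads per library, and 12 of 24 libraries had at least 3 reads. It ranged from 0.104 to 9.33 CPM in CD (median 0.477) and from 0 to 3.27 CPM in HFD (median 0.0721). The single highest library of each of these groups, CD F2 and HFD M2, held most of the group's level (logFC = -1.84; SE = 0.88; FDR = 1), and the logFC was -0.63 without CD F2 and -3.01 without HFD M2 and HFD F2. Saa2 gave 23 reads in all 24 libraries together, with 0 reads in 13, and no difference was detectable at this depth.

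HFDmetf vs. CDmetf compared the diets under metformin. At an unadjusted p under 0.05 there were 1109 genes (7.88%) and 2 of the 8, Reg3g and Saa1, both with lower values in HFDmetf. The count was 0 without CDmetf M3 and 0 without HFDmetf M2, 1 (Saa1) without CDmetf F3, HFDmetf M3 or HFDmetf F3, and 4 without HFDmetf M1. By limma-voom it was 3 (Reg3b, Reg3g and Saa1). Reg3b ranged from 336 to 1120 CPM in CDmetf (median 754) and from 119 to 838 CPM in HFDmetf (median 219). Only HFDmetf M1 lay above the CDmetf median (logFC = -1.16; SE = 0.62; FDR = 0.651). Reg3g ranged from 243 to 517 CPM in CDmetf (median 267) and from 97.7 to 276 CPM in HFDmetf (median 149), again with HFDmetf M1 as the only library over the CDmetf median (logFC = -0.95; SE = 0.44; FDR = 0.627). Without HFDmetf M1 the logFC of Reg3b was -1.91 and that of Reg3g -1.27. Saa1 had reads in all 6 CDmetf libraries (0.472 to 3.31 CPM) and in 3 of 6 HFDmetf libraries, with at most 0.949 CPM (logFC = -2.47; SE = 0.98; FDR = 0.599). HFDmetf M2, M3 and F2 had 0 reads, and there 3 reads would have been 0.936, 1.32 and 1.7 CPM. The CDmetf median was 0.773 CPM, so at this depth 0 reads do not show a level below that of CDmetf. The logFC of Saa1 was -3.78 without HFDmetf M1 and -1.62 without CDmetf M3. Fut2 had medians of 3.4 and 1.59 CPM (logFC = -0.70; SE = 0.46; FDR = 0.699) and Reg3a 30.7 and 47.2 CPM (logFC = 0.56; SE = 0.33; FDR = 0.664). Without HFDmetf M2, the highest Reg3a library, the logFC of Reg3a was 0.16. Duox2 (logFC = 0.27; SE = 0.50) and Duoxa2 (logFC = 0.21; SE = 0.64) differed by less than their SE.

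HFDmetf vs. HFD asked what metformin did on the high-fat diet. At an unadjusted p under 0.05 there were 931 genes (6.61%) and 3 of the 8, Reg3g, Duox2 and Duoxa2, all with lower values in HFDmetf. The count was 1 without HFD M3 (Reg3g) and 1 (Duoxa2) without HFD F2, HFDmetf F1, HFDmetf F2 or HFDmetf F3. Duox2 ranged from 80.9 to 296 CPM in HFDmetf (median 213), and 0 of its 6 libraries reached the HFD median of 301 CPM (logFC = -1.02; SE = 0.48; FDR = 0.639). Duoxa2 ranged from 4.52 to 14.3 CPM in HFDmetf (median 9.96), and 0 of 6 libraries reached the HFD median of 20.5 CPM (logFC = -1.59; SE = 0.62; FDR = 0.639). HFD F3, with 99.8 CPM of Duox2 and 2.95 CPM of Duoxa2, kept the ranges overlapping. Without HFD M3 the logFC values were -0.53 and -0.90, and by limma-voom -0.97 and -0.26. By limma-voom 0 of the 8 had an unadjusted p under 0.05. Reg3b (logFC = -1.32; SE = 0.67; FDR = 0.639) and Reg3g (logFC = -0.99; SE = 0.46; FDR = 0.639) were also lower in HFDmetf, where HFDmetf M1 alone exceeded the HFD median of either gene. Both values rested in part on HFD F2, the library with the most Reg3b (2680 CPM) and Reg3g (981 CPM), whose sex label its reads contradict. Without it they were -0.84 and -0.51. Without both HFD M2 and HFD F2 they were -0.65 and -0.24, and 0 of 9 tested members reached an unadjusted p under 0.05. Some marker lists of cell type and region also had lower values here, with no gene at an FDR of 0.05. Lower in HFDmetf were 9 of 9 B-cell markers (median logFC -2.42, 8 at an unadjusted p under 0.05), 6 of 6 proximal small intestine markers (median logFC -1.30, 0 at that p) and 10 of 11 enterocyte markers (median logFC -0.43, 1 at that p). So were 5 of 5 tested T-cell markers (median logFC -0.95, 1 at that p) and 5 of 5 tested tuft markers (median logFC -0.25, 0 at that p). Other lists had higher values for every tested gene. These were smooth muscle (6 genes, median logFC 0.45), macrophage (7, 0.53) and adipocyte markers (7, 1.47). The same held for stem and crypt (6, 0.32) and pancreatic acinar markers (5, 3.12, 4 at that p). It also held for the few tested hepatocyte (2, 0.74) and neutrophil markers (1, 0.11). The summed enterocyte markers had medians of 24200 CPM in CD, 22700 in CDmetf, 24400 in HFD and 17900 in HFDmetf, with extremes of 8730 and 27800 CPM, and none was at 0 throughout a group. In HFDmetf vs. CDmetf 10 of 11 were lower as well (median logFC -0.31, 1 at that p). The part of these lists in the Reg3b, Reg3g, Duox2 and Duoxa2 values was not tested. Reg4, a secreted lectin of secretory cells, had medians of 61.1 CPM in HFD and 91 CPM in HFDmetf (logFC = 0.61; SE = 0.46; FDR = 0.665), and 0.01 without HFDmetf M1.

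CDmetf vs. CD gave no member at an unadjusted p under 0.05, against 724 genes (5.14%), and the logFC values of the 8 ran from -0.18 (Duoxa2) to 0.45 (Saa1). For Saa1 the mean CPM was lower in CDmetf (1.46) than in CD (2.25), opposite to the fitted logFC, since CD F2 (9.33 CPM) carried most of the CD mean. The 95% confidence interval of the logFC was -1.18 to 1.38 for Reg3b and -1.03 to 0.98 for Duox2, so changes within these bounds could not be seen. In the diet by metformin interaction, the difference between the effect of metformin on HFD and on CD, no gene passed an FDR of 0.05 (0%). The logFC was -1.42 for Reg3b (SE = 0.90), -0.97 for Reg3g (SE = 0.63), -1 for Duox2 (SE = 0.67) and -1.41 for Duoxa2 (SE = 0.87), each with FDR = 0.801. Without HFD M2 and HFD F2 the values of Reg3b and Reg3g were -0.63 and -0.14, and by limma-voom that of Duoxa2 was 0.22. None of the 8 had an unadjusted p under 0.05 there, against 6.03% of genes. The effect of metformin was thus not shown to differ between the diets for any of them.

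**Figure D2:**
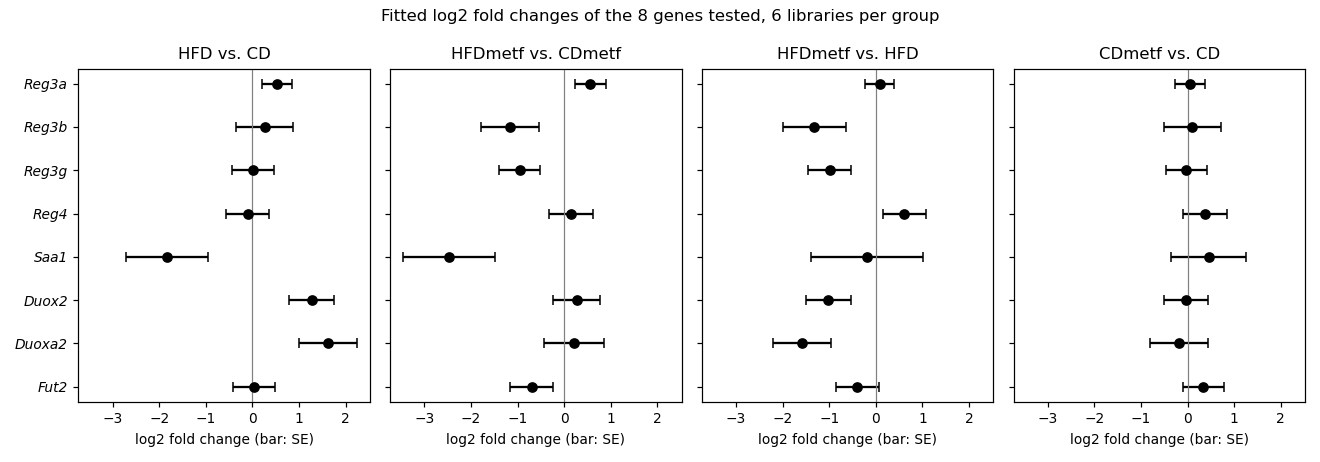
Fitted log2 fold changes of the 8 tested genes in the 4 comparisons of groups, with bars for the SE. In HFD vs. CD the values of Duox2 (1.27) and Duoxa2 (1.62) lie to the right and Saa1 (-1.84) to the left; in HFDmetf vs. HFD the values of Reg3b, Reg3g, Duox2 and Duoxa2 lie between -0.99 and -1.59.

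Between females and males the logFC values, females minus males, lay between -0.98 (Saa1) and 0.45 (Duoxa2). No member was called at an FDR of 0.05, against 1 of 14076 tested genes. This fit kept the sex labels of HFD M2 and HFD F2, which their reads contradict. Without these 2 libraries 8 of 15044 genes and 0 of 9 tested members passed. The logFC of Saa1 was then -0.59, and that of Reg3b went from -0.67 to -0.84. In the CD and CDmetf groups, however, Duox2 was higher in every female than in any male, a pattern chosen after its values were seen. In CD the males had 92.7, 103 and 155 CPM and the females 174, 260 and 277 CPM. In CDmetf the males had 53.2, 62.8 and 95 CPM and the females 206, 270 and 384 CPM. By their labels the HFD males had 250, 468 and 1040 CPM and the HFD females 99.8, 234 and 352 CPM. These ranges overlapped only through HFD M2 (250 CPM) and HFD F2 (352 CPM), the libraries whose reads went against their sex labels, and the other HFD males were higher than the other HFD females, the order opposite to that in CD. In HFDmetf the males had 210 to 296 CPM and the females 80.9 to 230 CPM. The effect of HFDmetf vs. CDmetf on Duox2 differed between the sexes by a logFC of -2.57 for females minus males (SE = 0.66; FDR = 0.423), and that of HFD vs. CD by -2.18 (SE = 0.67; FDR = 1). For Duoxa2 the same differences were -2.78 (SE = 1.09; FDR = 0.936) and -2.19 (SE = 1.05; FDR = 1). None of the tested members passed an FDR of 0.05 in any of the 4 comparisons by sex, nor did any of the 14402 genes tested. Without HFD M2 and HFD F2 the smallest FDR of a member was 0.196, and 1 of 15552 genes passed, in HFDmetf vs. CDmetf.

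Several of the genes varied together from animal to animal. Correlations of log2 CPM over the 24 libraries were computed for all 45 pairs of the 10 genes, and 7 pairs had adjusted permutation p-values under 0.05 for both Pearson's r and Spearman's rho. Reg3b and Reg3g had r = 0.95 and rho = 0.94 (adjusted permutation p = 0.000225 for both, from the smallest p that the permutations can give). With group, sex and replicate number taken out, r was 0.93, and without the 2 libraries farthest from the median of Reg3b (HFD F1 and HFD F2) it was also 0.93. Within the replicate numbers 1, 2 and 3 it was 0.96, 0.94 and 0.92. The ratio of Reg3b to Reg3g ran from 0.992 in HFDmetf F2 to 3.91 in CDmetf M2, so Reg3b moved over a wider range than Reg3g. No stretch of 100 bases was shared between annotated transcripts of Reg3b or Reg3g and those of any other gene.

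Duox2 and Duoxa2 were as tightly linked, with r = 0.95 and rho = 0.94 (adjusted permutation p = 0.000225 for both), r = 0.94 with group, sex and replicate number taken out, and r = 0.94 without CDmetf M1 and HFD M3. Within the replicate numbers r was 0.97, 0.89 and 0.98. The ratio of Duox2 to Duoxa2 had a median of 18.5 and ranged from 9.97 to 33.8. Duoxa2 overlaps Duoxa1 on the opposite strand and shares 39.1% of its 100-base stretches with it, and the strand used in counting is not stated, so their counts are uncertain. Duoxa1 had a median of 0.774 CPM. Duox1, the paralogue next to Duox2, had a median of 0.645 CPM.

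Saa1 went with the REG3 pair, with r = 0.71 and rho = 0.76 to Reg3b (adjusted permutation p = 0.00214 and 0.000675) and r = 0.68 and rho = 0.74 to Reg3g (adjusted permutation p = 0.00214 and 0.000675). Taking out group, sex and replicate number left r at 0.62 and 0.56, and without HFD F1 and HFD F2 r was 0.73 for both. Within the replicate numbers r for Reg3b was 0.88, 0.76 and 0.33, and r for Reg3g 0.80, 0.63 and 0.60. Reg4 and Fut2 had r = 0.56 and rho = 0.67 (adjusted permutation p = 0.0368 and 0.00495), with r = 0.75 once group, sex and replicate number were taken out, r = 0.53 without CDmetf M2 and HFDmetf M1, and 0.84, 0.58 and 0.75 within the replicate numbers. Reg3a went its own way among the REG3 genes. It was related to Duox2 (r = 0.53, rho = 0.57; adjusted permutation p = 0.0434 and 0.0273) and inversely to Saa1 (r = -0.59, rho = -0.60; adjusted permutation p = 0.0267 and 0.0169). Without HFDmetf M2 and HFDmetf M3 these r values were 0.55 and -0.50, with group, sex and replicate number taken out 0.41 and -0.43, and within the replicate numbers 0.68, 0.48 and 0.52 for Duox2 and -0.29, -0.53 and -0.85 for Saa1. Reg3b and Duox2 gave r = -0.12 and rho = -0.14 (adjusted permutation p = 0.686 and 0.564).

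**Figure D3:**
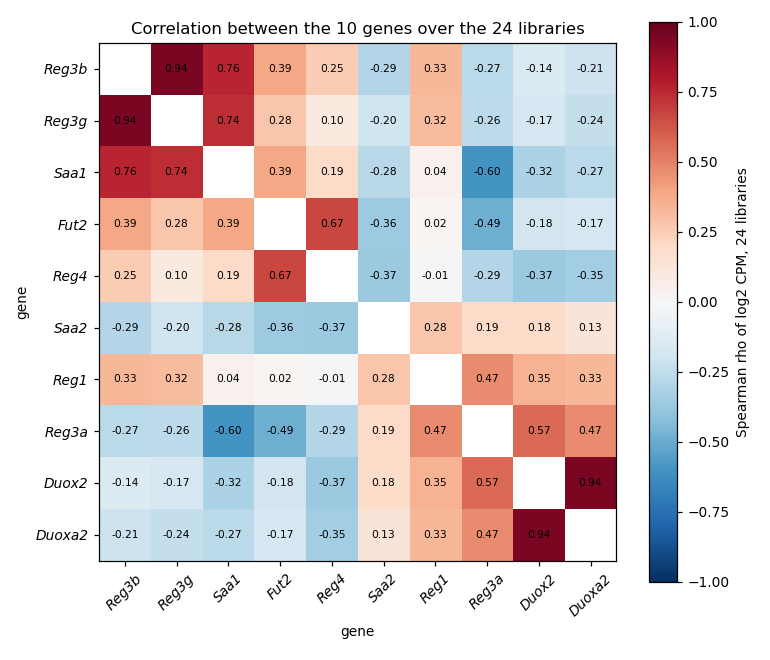
Spearman's rho of log2 CPM between each pair of the 10 genes over 24 libraries, with red for positive and blue for negative values. The pairs Reg3b with Reg3g and Duox2 with Duoxa2 stand out at 0.94, and Saa1 joins the first pair at 0.76 and 0.74.

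**Figure D4:**
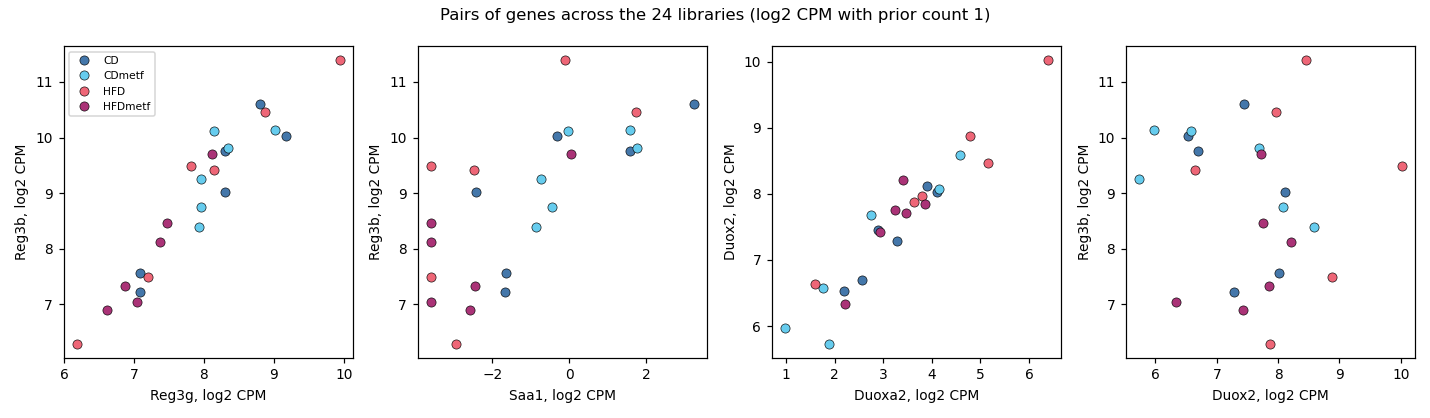
Log2 CPM (prior count 1) of 4 pairs of genes, 1 point per library, coloured by group. Reg3b rises with Reg3g (r = 0.95) and with Saa1 (r = 0.71), and Duox2 with Duoxa2 (r = 0.95), in all 4 colours, and Reg3b and Duox2 form a diffuse cloud.

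Across all 14076 tested genes, the gene most like Reg3b and most like Reg3g was Lypd8, a secreted protein that binds bacterial flagella (rho = 0.82 and 0.74 over 24 libraries), followed for both by the interferon-induced gene Oas1a (0.77 and 0.72). Next came Pcgf3 (0.73), Eif4e3 (0.72) and P2rx4 (0.71) for Reg3b, and B4galt4 (0.69), Tnfrsf14 (0.69) and Ifit1bl1 (0.68) for Reg3g. Duox2 was most like Sprr2a3 (0.81), Snx9 (0.78), Lpcat3 (0.77), Pnrc1 (0.76) and Egln3 (0.76). Reg4 was most like Postn (0.91), which encodes the matrix protein periostin, Gucy1a1 (0.90), Ap1s2 (0.88), Usp46 (0.87) and F2r (0.87). Saa1 was most like Hpcal1 (0.84), Ptprj (0.80), Slc17a8 (0.79), Ndnf (0.78) and Cd177 (0.78), Fut2 like Pygl (0.81), Zc2hc1a (0.80), Tctn2 (0.77), Slc4a8 (0.76) and Scn9a (0.76), and Reg1 like Caml (0.72), Psma4 (0.71), Gstm7 (0.67), Ier3ip1 (0.66) and Neurod1 (0.65). These are the 5 highest of 14076 coefficients for each gene, and they were not tested against chance. Saa1 had at least 3 reads in only 12 of 24 libraries and Reg1 in 20, so their orders rest partly on few reads.

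Some of these genes varied with markers of gut region and of other tissue layers. The log2 CPM of 9 of the 10 genes (all but Saa2) was set against the summed level of 19 marker lists, 171 relations in all, and 7 had adjusted permutation p-values under 0.05 for both coefficients. Duox2 and Duoxa2 each went up with the proximal small intestine markers Gata4, Lct, Fabp1, Apoa4, Slc2a2 and Onecut2. For Duox2 r was 0.72 and rho 0.71 (adjusted permutation p = 0.00257 and 0.00798), with r = 0.71 once group, sex and replicate number were taken out and r = 0.66 without the 2 libraries farthest from the list's median. For Duoxa2 r was 0.72 and rho 0.70 (adjusted permutation p = 0.00257 and 0.00855), and r was 0.68 and 0.63 in these versions. The same list had its highest median in HFD, 4760 CPM (592 to 11500), beside 1490 CPM in CD (92.5 to 4690), 235 CPM in CDmetf (59.2 to 6490) and 1940 CPM in HFDmetf (150 to 4230). HFD M3 had the highest value of the list and of Duox2. In HFD vs. CD, 0 of its 6 genes passed an FDR of 0.05, 5 had higher values and 3 had an unadjusted p under 0.05, and none was at 0 throughout a group. Its part in the Duox2 and Duoxa2 values was not tested.

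Reg3a also rose with the proximal markers (r = 0.66, rho = 0.64; adjusted permutation p = 0.0185 and 0.0339), with r = 0.70 after group, sex and replicate number were taken out and 0.66 without the 2 farthest libraries. Reg4 went the other way with them (r = -0.60, rho = -0.63; adjusted permutation p = 0.0451 and 0.0339; r = -0.58 and -0.43 in those versions) and rose with 7 smooth muscle markers (r = 0.64, rho = 0.61; adjusted permutation p = 0.0217 and 0.0435; r = 0.66 and 0.47). The summed smooth muscle markers had medians of 2060 CPM in CD, 1690 in CDmetf, 1290 in HFD and 1830 in HFDmetf, with extremes of 977 and 3470 CPM, and their part in the Reg4 values was not tested. Reg3b and Reg3g correlated with a list of 8 large intestine markers (r = 0.82, rho = 0.78 and r = 0.75, rho = 0.70; adjusted permutation p = 0.00171 and 0.00171, and 0.00257 and 0.00798; r = 0.80 and 0.69 with the terms taken out and 0.76 and 0.63 without the 2 farthest libraries). Of that list's summed level, 80.1% came from Lypd8, and Car1, Aqp8, Hoxd10 and Hoxd13 had 0 reads in at least 20 of 24 libraries. With Lypd8 left out of the list, r was 0.30 for Reg3b (permutation p = 0.152) and 0.32 for Reg3g (permutation p = 0.134). Lypd8 itself ranged from 521 to 1430 CPM, and a relation to the other markers was not shown.

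**Figure D5:**
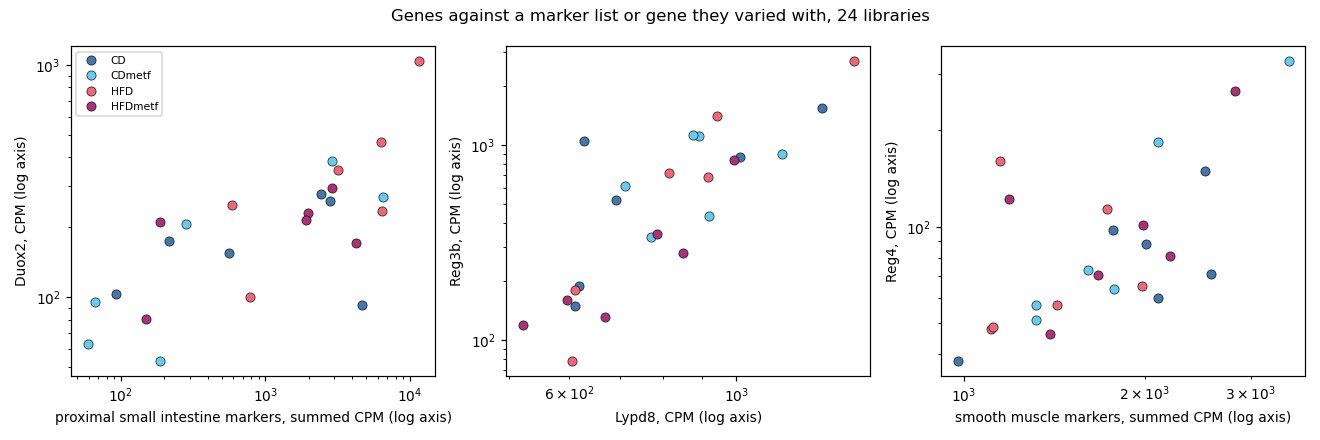
Duox2 against the summed CPM of proximal small intestine markers, Reg3b against Lypd8, and Reg4 against the summed CPM of smooth muscle markers, 1 point per library on log axes, coloured by group. Duox2 and the proximal markers are both highest in the same HFD library, and Reg3b reaches 2680 CPM in the library with 1430 CPM of Lypd8.

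Upstream of these genes, the IL-22 pathway was visible mainly on the receiving side. Il22 itself gave 4 reads, all in 1 of the 24 libraries, and none in the other 23, where 3 reads would have been 0.0701 to 1.7 CPM. Il23a had a median of 0.205 CPM and Il17a of 0 CPM. The receptor chains were abundant, with medians of 101 CPM for Il22ra1 and 49.7 CPM for Il10rb, as was Stat3 (148 CPM). Il22ra2, the soluble decoy receptor, had a median of 2.68 CPM. In the list of 17 receptor and signalling genes, 16 were tested and 0 passed an FDR of 0.05 in any comparison of groups. At an unadjusted p under 0.05 there were 0 in HFD vs. CD, 2 lower in HFDmetf vs. CDmetf, 2 lower in HFDmetf vs. HFD, and 2 higher and 1 lower in CDmetf vs. CD. The median logFC of the 16 was 0.08, -0.07, -0.10 and 0.10 in these comparisons, where the medians of all tested genes were 0, 0.03, 0.03 and 0. Socs3, a feedback inhibitor induced by Stat3, ranged from 13 to 99.8 CPM in HFD (median 35) and from 15.8 to 31.7 CPM in HFDmetf (median 18.2; logFC = -0.97; SE = 0.37; FDR = 0.639). Its median was lower with metformin on the control diet as well. There Socs3 ranged from 21.1 to 53 CPM in CD (median 29.6) and from 8.07 to 35.1 CPM in CDmetf (median 19.3). No HFDmetf library exceeded the HFD median of Socs3, nor of Il10rb (logFC = -0.45; SE = 0.19; FDR = 0.639).

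The cells that make IL-22 could not be followed closely. Of 12 ILC3 and Th17 markers, 9 were tested, 0 passed an FDR of 0.05, and their summed level had medians between 319 CPM (CD) and 366 CPM (CDmetf). Ccr6 had the smallest p of this list (HFDmetf vs. CDmetf, logFC = -2.24; SE = 0.83; FDR = 0.599) and is also a B-cell gene. The B-cell markers, which lie in lymphoid follicles, had a median of 66.5 CPM in CDmetf (11.7 to 410) and 21 CPM in HFDmetf (8.35 to 28.3), beside 18.6 in CD and 29.7 in HFD, and 9 of 9 were lower in HFDmetf vs. CDmetf at an unadjusted p under 0.05. All 9 had higher values both in HFD vs. CD (7 at that p) and in CDmetf vs. CD (9 at that p). Their part in the Reg3b, Reg3g and Saa1 values of that comparison was not tested.

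Other inducible defence genes of the epithelium were also without a call. Of 33, 23 were tested and 0 passed an FDR of 0.05 in any comparison of groups. In HFDmetf vs. CDmetf, 17 had lower and 6 higher values, with 4 lower and 2 higher at an unadjusted p under 0.05 (median logFC -0.32). In HFDmetf vs. HFD, 16 were lower and 7 higher (median logFC -0.25), in HFD vs. CD 10 lower and 13 higher (0.12), and in CDmetf vs. CD 9 lower and 14 higher (0.13). Nos2, the inducible nitric oxide synthase, had medians of 144 CPM in CD, 125 in CDmetf, 57.6 in HFD and 59.1 in HFDmetf, and 0 of 6 HFDmetf libraries exceeded the CDmetf median (logFC = -1.43; SE = 0.57; FDR = 0.599). Ido1 was lower (logFC = -1.28; SE = 0.49; FDR = 0.599) and Lrg1 higher (logFC = 1.60; SE = 0.60; FDR = 0.599) in the same comparison. Pigr, the receptor that carries IgA into the lumen, ranged from 976 to 3540 CPM, and its logFC was -0.47 (SE = 0.27; FDR = 0.662) there. The antimicrobial genes Retnlb (22 reads in all libraries) and Lcn2 (median 1.34 CPM) were low. Lyz1 of Paneth cells (median 5330 CPM) and Muc2 of goblet cells (3300 CPM) were abundant in each group.

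Of 13 Myd88 and NF-kappa B input genes, 12 were tested and 0 passed an FDR of 0.05. In CDmetf vs. CD, 12 of 12 had higher values (median logFC 0.18, 1 at an unadjusted p under 0.05), and in HFDmetf vs. CDmetf 11 of 12 had lower values (median logFC -0.20, 2 at an unadjusted p under 0.05). These comparisons share the CDmetf libraries. Rel (logFC = -0.53; SE = 0.19; FDR = 0.599) and Nfkbia (logFC = -0.41; SE = 0.15; FDR = 0.599) had the smallest p in the latter. In HFD vs. CD and HFDmetf vs. HFD, 6 were higher and 6 lower.

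The relatives of these genes were mostly silent here. Reg2 (14 reads in all libraries), Reg3d (113), Saa3 (74) and Saa4 (4) did not pass the filter. Saa1 and Saa2 share 8.96% and 8.63% of their 100-base stretches with each other, and reads from those stretches cannot be assigned. Reg1 had a median of 1.47 CPM and a highest value of 5.28 CPM in HFD M3, and had at least 3 reads in 20 of 24 libraries. With no filter on low counts its logFC lay between -0.79 and 0.31 in the 4 comparisons, with SE near 0.50, and its relation to markers of pancreatic acinar cells, which make Reg1, did not pass the threshold (r = 0.25, rho = 0.11; adjusted permutation p = 0.623 and 0.858). Of 8 further DUOX and NOX oxidase genes, 4 were tested and 0 passed an FDR of 0.05. The 2 with the smallest p were Cybb of phagocytes (CDmetf vs. CD, logFC = 0.60; SE = 0.26; FDR = 0.94) and Noxo1 (HFDmetf vs. HFD, logFC = 0.65; SE = 0.33; FDR = 0.639). Nox1, the other epithelial oxidase, had a median of 1.26 CPM. Of 12 genes of fucosylation found in the table, 9 were tested and 0 passed. Fuk (logFC = 0.56; SE = 0.16; FDR = 0.582) and Fut8 (logFC = 0.33; SE = 0.13; FDR = 0.599) were higher in HFDmetf vs. CDmetf. Fut4 had a median of 23.9 CPM, Fut2 of 2.09 CPM and Fut1 of 1.28 CPM, none of them per length. Fut2 itself gave at most 142 reads, in CDmetf M3.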

How the data were processed

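For 24 libraries, the authors deposited unnormalized counts of reads for every gene. Per the study's methods, RNA was depleted of ribosomal RNA, directional libraries were sequenced, and reads were trimmed with Trimmomatic 0.39 and mapped to GRCm38 and counted by STAR 2.5.3a. Which annotation release and which strand were used is not given in the sources used here, so overlapping and near-identical genes are uncertain. The deposited counts hold 55536 genes and 0 columns of other samples, and the rows that count unassigned reads were left out.

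Groups, sexes and replicate numbers came from the sample labels. Counts were fitted in R 4.3.3 with edgeR 4.0.16 (TMM, filterByExpr, 14076 genes) by a quasi-likelihood model with group, sex and replicate number, which left 17 residual degrees of freedom, and p-values were adjusted by the Benjamini-Hochberg method across genes. Correlations used log2 CPM (prior count 1) with 100000 permutations, two-sided. Genes were named by a rule: the 10 members, listed relatives, pathway and region genes, the 2 genes of smallest p in each list, and the 5 genes most like a member. On simulated counts for HFD vs. CD the test recovered 56% of 200 genes changed by 1 on the log2 scale (13982 genes tested) and 92% of those changed by 2 (13879). The changed genes were drawn at random from the tested genes, and no effect of sex or replicate number was simulated. Each of the 10 genes had a larger within-group SD than at least 78.7% of tested genes, so these shares do not apply to them. Alternatives included limma-voom (limma 3.58.1) and DESeq2 1.42.0. Gene positions were taken from GENCODE M21 and promoters from RefSeq. The 10 genes, the lists and the tests were chosen with earlier results of these data known. The correlations with marker lists were added after seeing the data.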

Additional observations from a re-analysis of the deposited data

Results flagged for a closer look

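In groups of 6 animals, a library was marked where its gap to the nearest other library, divided by the group's range, exceeded Dixon's 95% critical value. Of 40 groups examined (10 genes in 4 groups), 7 were marked, each for its highest library. Chance marks about 1 in 20 only where values are normally distributed. The rule was applied to CPM without a log, and several of the genes vary together, so the 7 marks are not read as an excess. HFDmetf M1 was marked for 3 genes, with 838 CPM of Reg3b beside 351 CPM in the next library, 265 CPM of Reg4 beside 122 CPM, and 0.949 CPM of Saa1 (6 reads) beside 0.101 CPM. CD F2 was marked for Saa1, with 9.33 CPM (28 reads) beside 2.91 CPM, and for Fut2, with 5.66 CPM (17 reads) beside 2.92 CPM. HFD M2, whose reads go against its sex label, had 3.27 CPM of Saa1 (10 reads) beside 0.852 CPM. CDmetf M3 had 517 CPM of Reg3g beside 326 CPM.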

How the results depend on the processing

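The comparisons of groups, their interaction and that of females with males were recomputed under RLE normalization, DESeq2, limma-voom, 2 other filters, no replicate block, robust fitting, without CD M3, without HFD M2 and HFD F2, and with each of the 24 animals left out, and the comparisons of groups also with only the libraries compared. The comparisons by sex were rerun only without the block and without HFD M2 and HFD F2, and 7 of the 45 correlations between members under 2 other prior counts, without CD M3, and without HFD M2 and HFD F2. No member reached an FDR of 0.05 in any of these fits. Counts of all genes moved. DESeq2 called 13 genes in HFD vs. CD, 3 in HFDmetf vs. CDmetf, 4 in CDmetf vs. CD, 4 in the interaction and 19 between females and males, where edgeR called 0, 0, 0, 0 and 1. The count between females and males was 15 without a filter, 2 without CD M3 and 8 without HFD M2 and HFD F2. Leaving out each animal in turn gave between 0 and 1 genes in HFD vs. CD (1 without CD F1) and between 1 and 8 between females and males (8 without HFD M2, 7 without HFD F2). Of 731 recomputed log2 fold changes of members that exceeded their SE, 730 kept their direction. The 1 that reversed was the interaction of Duoxa2 under limma-voom (0.22). That fit weights deep libraries such as HFD F3, the HFD library lowest in Duoxa2, more than shallow ones. The cause of the reversal was not tested. Only changes above their SE in the main fit were recomputed, mostly on the same libraries, so a kept direction says little. The correlation of Reg4 and Fut2 was r = 0.50 (adjusted permutation p = 0.086) with a prior count of 0.25. That of Reg3a and Duox2 was r = 0.53 with a prior count of 0.25 (adjusted permutation p = 0.0526) and without CD M3 (adjusted permutation p = 0.0503). The other pairs rerun kept their side of the threshold. The remaining pairs were not rerun, nor were the relations to marker lists beyond the versions given beside them. The replicate numbers were not shown to pair the libraries: libraries of the same number and sex in different groups had a mean correlation of 0.168 of their deviations (lowest -0.44), against -0.064 for different numbers. Without the replicate block, 0 genes were called in each comparison of groups, and 1 between females and males. The filter of 10 counts in every library left 5 members. Depth limits Saa1, Saa2, Reg1 and Fut2, which gave few reads in the shallow libraries.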
